A study of Mus musculus with 3 samples.

Results

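The 10 genes of the collagen matrix described here, 5 small leucine-rich proteoglycans and 5 lysyl oxidases, were followed in c2c12 myoblasts across 3 culture substrates. The members were taken by their symbols, Dcn, Bgn, Lum, Fmod, Ogn, Lox, Loxl1, Loxl2, Loxl3 and Loxl4, and all 10 were found among the 23238 gene symbols counted. C2c12 is an immortalized line of mouse myoblasts that leaves the cell cycle and fuses into myotubes when serum is lowered. Cells spent 2 days under myogenic induction on a tissue culture plate (TCP), on a hydrogel of 15% methacrylated gelatin (GelMA), or on the same hydrogel with 1% of the sulfonated polymer poly(sodium 4-styrenesulfonate) (GelMA-PSS), a synthetic mimic of heparin. RNA-seq was run on 1 library per substrate, so the spread between cultures is unknown and no difference below carries a p-value. The cultures share the cell line, the medium and the day of harvest, and the GelMA library differs from GelMA-PSS in the polymer and from TCP in the whole substrate.

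Small leucine-rich proteoglycans are secreted proteins with a core of leucine-rich repeats. They bind collagen fibrils and govern their spacing and diameter, and several of them also hold growth factors such as TGF-β in the matrix. Decorin (Dcn) and biglycan (Bgn) carry chondroitin or dermatan sulfate chains, whereas lumican (Lum), fibromodulin (Fmod) and osteoglycin (Ogn) belong to the classes that can carry keratan sulfate. Lysyl oxidases are secreted copper enzymes that oxidize lysines in collagen and elastin, the step that starts their cross-linking. Lox and Loxl1 are made with a propeptide, and Loxl2, Loxl3 and Loxl4 carry scavenger receptor domains in its place. In skeletal muscle these genes are best known from the connective tissue around the fibers, and myoblasts in culture also express many of them.

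The TCP library held 119799095 counts, the GelMA library 87071144 and the GelMA-PSS library 192171443. Each count was expressed as CPM, the count scaled to the size of its library with a TMM factor. A marker was treated as detected above 3 counts, which corresponded to a CPM of 0.0246, 0.0330 and 0.0166 in these libraries. All 10 muscle markers on the list examined had a CPM of 1 or more in every library, with summed CPM of 27469 on TCP, 21152 on GelMA and 15729 on GelMA-PSS. Of these sums Myh3 made up 10182, 6355 and 3037 and Ttn 3073, 2808 and 522. In GelMA-PSS against GelMA 6 of the 10 muscle markers lay above 0, with a median log2 ratio of 0.11. Ttn, whose transcript has 106824 bases, went from -2.43 to 0.24 there when corrected for transcript length and GC content. Myh3 went from -1.07 to -0.61. In GelMA-PSS against TCP 3 muscle markers lay above 0 and 7 below, with a median of -0.19, or -0.29 corrected. Against TCP Ttn went from -2.55 to -0.76 when corrected and Myh3 from -1.75 to -1.41. Markers of adipocytes (6 genes) did not reach a CPM of 1 in any library, and a list of 8 macrophage and endothelial markers summed to between 2.505 and 2.54. Of 8 markers of fibroblasts, 6 had more than 3 counts in every library. Their summed CPM was 339 on TCP, 501 on GelMA and 1151 on GelMA-PSS, of which Ly6a made up 296, 431 and 1071. Tcf21 was at 0 in each library. In GelMA-PSS against GelMA 2 of the 5 fibroblast markers that reached a CPM of 1 lay above 0 and 3 below. Their median log2 ratio was -0.14, or 0.09 corrected for transcript length and GC content. In GelMA against TCP all 5 lay above 0, with a median of 0.64, or 0.68 corrected. In GelMA-PSS against TCP 4 lay above 0 and 1 below, with a median of 0.70, or 0.47 corrected. Ly6a, whose transcript has 955 bases, went from 1.31 to 0.74 when corrected. Of 8 markers of osteoblasts and chondrocytes, which summed to 49.8, 66.5 and 43.8, Ibsp was at 0 in each library. The cartilage markers among them were highest on GelMA, with 13, 592 and 2 counts of Col2a1, 4, 43 and 4 of Acan and 1, 21 and 0 of Matn1 on TCP, GelMA and GelMA-PSS, the latter pair named after their values were seen. The part of these shifts in the results below was not tested, and in a bulk library fewer cells of a type and less RNA per cell cannot be told apart.

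Of the 10 members, 9 reached a CPM of 1 and were tested among the 13169 genes that did so in some library. Those 9 reached it in all 3 libraries. Fmod did not, with 24 counts on TCP, 17 on GelMA and 5 on GelMA-PSS. By TPM, the level per base of transcript, Bgn was within each library the most abundant small leucine-rich proteoglycan, and Dcn and Ogn followed, whereas Lum was far lower, with a CPM close to the limit. Among the lysyl oxidases, Lox and Loxl1 were the abundant members, Loxl2 and Loxl3 were lower, and Loxl4 was the least abundant. The plot of levels by library shows both families.

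**Figure D1:**
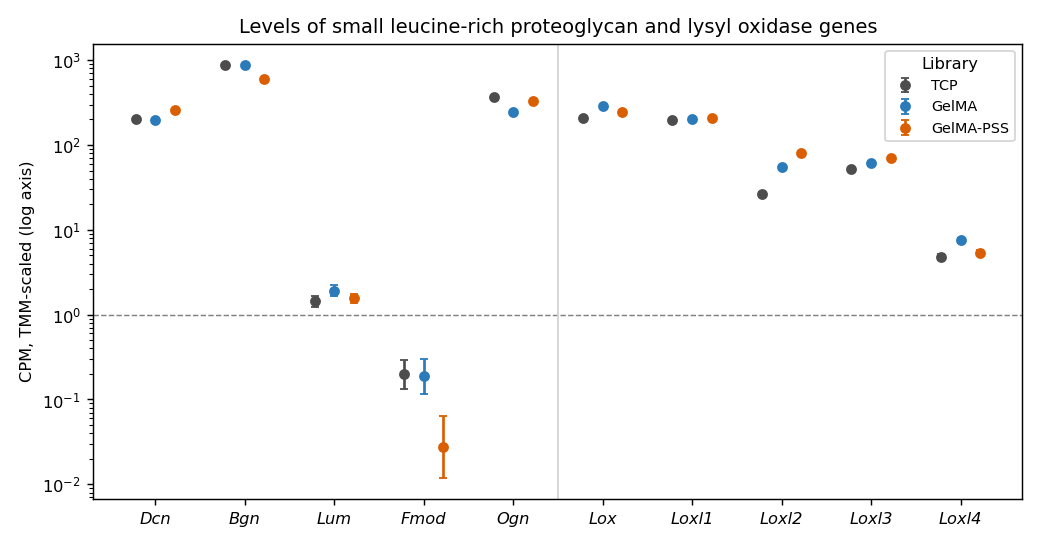
TMM-scaled CPM of the 10 genes (log axis) in the TCP, GelMA and GelMA-PSS libraries, 1 point per library, with 95% Wilson intervals that cover counting error only. The dashed line is the CPM limit of 1, and Fmod lies under it in each library. Bgn is lower on GelMA-PSS (597 CPM) than on TCP and GelMA, and Loxl2 is ordered from TCP (26.8 CPM) to GelMA (54.8 CPM) to GelMA-PSS (79.7 CPM).

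Libraries were compared by their difference in log2(CPM + 1), and a gene was called past 2-fold by size alone. In GelMA against TCP, 1 of the 9 tested members was called, Loxl2, which was higher, whereas 1.00% of all genes were called, 0.706% higher and 0.296% lower. In GelMA-PSS against GelMA, 0 members were called in either direction, beside 4.10% of all genes, 1.77% higher and 2.33% lower. In GelMA-PSS against TCP, 1 member was called, again Loxl2 and higher, beside 6.85% of all genes, 3.72% higher and 3.13% lower. Against both controls 0 members passed 2-fold in the same direction, beside 2.53% of all genes, 1.37% higher and 1.16% lower. Counts of members were the same at 1.5-fold, where the shares of all genes called were 5.62% in GelMA against TCP (3.50% higher, 2.12% lower), 21.8% in GelMA-PSS against GelMA (11.0% and 10.8%), 24.7% in GelMA-PSS against TCP (13.2% and 11.5%) and 15.3% against both controls (8.08% and 7.18%). Most members thus lay within the threshold, as most of all genes did, and the values of each are given below. The comparisons share libraries, so that they are not independent of each other.

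A property of the whole GelMA-PSS library touches these values. Over the 13060 genes with a known transcript length, Spearman's rho between ratio and length was -0.66 in GelMA-PSS against GelMA, -0.50 in GelMA-PSS against TCP and 0.21 in GelMA against TCP. These are descriptions across genes, which share their libraries and are not replicates. Each member is therefore given with its ratio as measured and with the ratio after a loess correction for transcript length and GC content, called the corrected ratio. With corrected ratios 0 members passed 2-fold in GelMA against TCP, where 0.666% of all genes were called higher and 0.260% lower, and 0 in GelMA-PSS against GelMA, where 0.666% were called higher and 1.20% lower. Loxl2 alone passed in GelMA-PSS against TCP, where 2.02% were called higher and 2.40% lower, and 0 members passed against both controls (0.436% and 0.628%). The cause of the dependence on length was not tested.

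**Figure D2:**
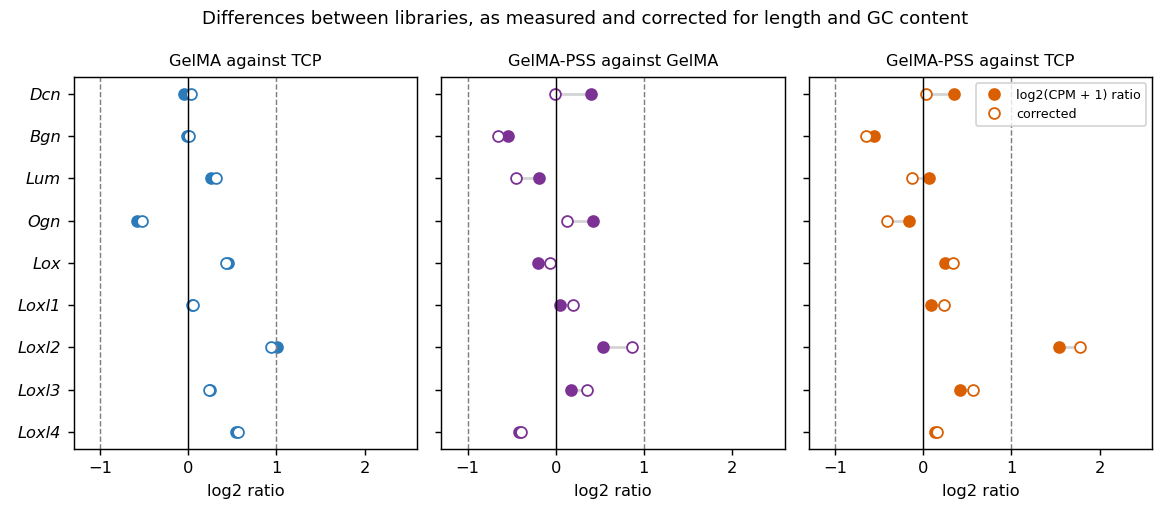
Log2 ratios of the 9 tested members in the 3 comparisons, as measured on log2(CPM + 1) (filled) and corrected for transcript length and GC content (open), with 1 library per substrate. Dashed lines mark 2-fold. Loxl2 is the member farthest to the right in each panel, Bgn is left of 0 in both panels with GelMA-PSS, and the ratio of Dcn with GelMA-PSS moves to about 0 once corrected.

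The transcript used for Loxl2 has 5316 bases, the longest among the members, and that for Dcn has 1758 bases, the shortest. The scatter of ratio against transcript length shows where the members lie among genes of like length. In GelMA-PSS against GelMA, Dcn and Ogn sit within the cloud of genes of their length, Bgn lies toward its lower edge and Loxl2 at its upper edge.

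**Figure D3:**
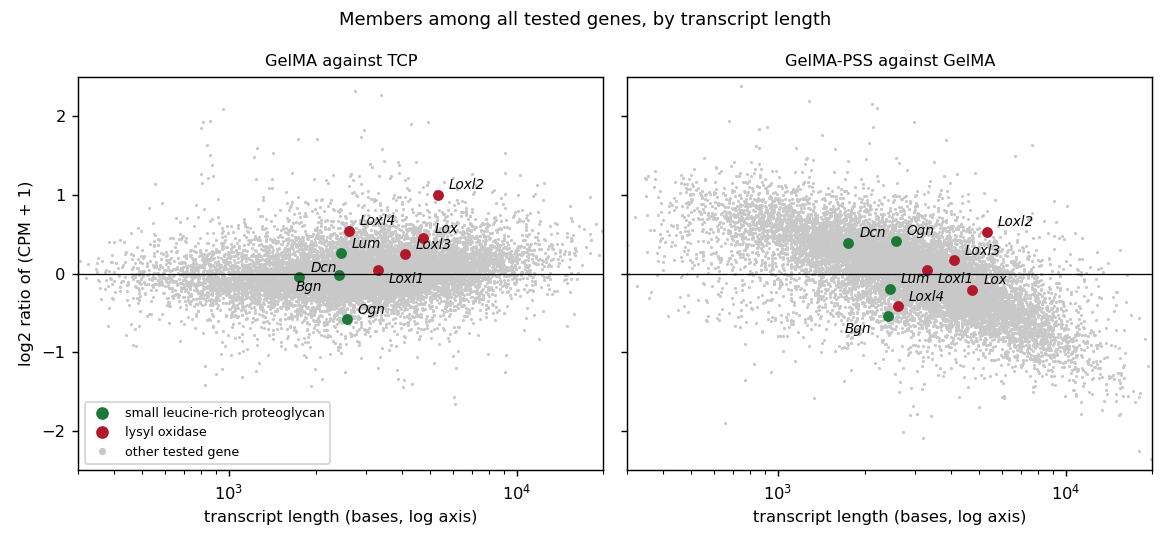
Log2 ratio of (CPM + 1) against transcript length (bases, log axis) for the tested genes (grey) with the members marked by family. The axes leave out genes beyond 2.5 in either direction or outside the lengths drawn. The grey cloud falls with length in GelMA-PSS against GelMA, and Loxl2 (0.53) lies at the upper edge of the genes of its length while Bgn (-0.54) lies toward the lower edge.

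Biglycan was the member with the clearest difference on GelMA-PSS among the proteoglycans. Bgn lies on chromosome X from 73483602 to 73495933 of GRCm38, on the plus strand, and its transcript has 8 exons. It had 107155 counts on TCP, 79072 on GelMA and 108155 on GelMA-PSS, which gave CPM of 880.0 (95% confidence interval from 875 to 885), 870.1 (864 to 876) and 597 (593 to 601). The controls differed by a log2 ratio of -0.02, whereas GelMA-PSS lay at -0.54 against GelMA and -0.56 against TCP. As a plain ratio of CPM, Bgn on GelMA-PSS was 0.686 of its GelMA value (95% counting interval from 0.680 to 0.692) and 0.678 of its TCP value (0.673 to 0.684). Of all tested genes, 12.2% had a lower ratio against GelMA and 12.4% a lower ratio against TCP. After the correction the ratios of Bgn were -0.65 and -0.65, and 4.25% and 7.64% of genes lay lower. Both ratios were just under the 1.5-fold line before the correction.

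The promoter of Bgn, and that of Ogn, are printed because these are, among the 4 tested proteoglycan members, those with the lowest ratio to TCP on GelMA-PSS and on GelMA. They are the 250 bases before the RefSeq gene start in GRCm38.p6, 5′ to 3′ on the plus strand, at chrX:73483351-73483600 and chr13:49607765-49608014. Capitals mark each E-box, the letters CANNTG, which read the same on both strands and which MyoD and other myogenic factors can bind.
Bgn: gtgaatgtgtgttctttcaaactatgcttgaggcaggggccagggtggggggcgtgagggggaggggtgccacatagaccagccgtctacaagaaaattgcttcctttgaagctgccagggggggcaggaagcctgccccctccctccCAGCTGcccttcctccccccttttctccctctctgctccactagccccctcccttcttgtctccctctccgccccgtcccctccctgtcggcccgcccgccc
Ogn: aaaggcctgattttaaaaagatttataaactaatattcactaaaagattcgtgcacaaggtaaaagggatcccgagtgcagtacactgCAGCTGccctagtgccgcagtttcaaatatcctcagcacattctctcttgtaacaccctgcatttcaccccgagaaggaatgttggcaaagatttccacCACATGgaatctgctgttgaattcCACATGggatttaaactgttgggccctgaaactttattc
The Bgn window holds 1 E-box, 102 bases before the gene start, and 3 matches to the GC box GGGCGG on either strand, some of which overlap. Its GC content is 64.4%, against a median of 52.4% over 32851 promoters. The Ogn window holds 3 E-boxes, 2 overlapping matches to TATAAA, 1 match to GGAATG and 0 to GGGCGG. Its GC content is 42.0%. Of all promoters of this length, 66.2% hold an E-box, 32.7% a GGGCGG, 12.4% a TATAAA and 12.6% a GGAATG. Promoter sequences matched 4 of the 10 members, the others being Loxl4 and Fmod.

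Osteoglycin followed another order. Ogn, on chromosome 13 from 49608046 to 49624501 with a transcript of 2566 bases, had CPM of 365 (362 to 369) on TCP, 244 (240 to 247) on GelMA and 326 (323 to 329) on GelMA-PSS. By CPM the GelMA library was thus the low one, with a log2 ratio of -0.58 against TCP, and only 2.16% of genes lay lower in that comparison. GelMA-PSS lay at 0.42 against GelMA and -0.16 against TCP. Corrected, these ratios were -0.53, 0.12 and -0.41. On TPM Ogn had 197 on GelMA and 191 on GelMA-PSS, a log2 ratio of -0.05, so that GelMA was not the lowest on that scale. The median of all genes on TPM was -0.36 in that comparison, and Ogn lay at 0.31 relative to it. Both hydrogels lay under TCP on each of these scales. The gene lies wholly inside Cenpp on the opposite strand. The methods of the study call the reads strand-specific, but whether the counting used strand is not given in the sources used here. Cenpp itself had 553, 340 and 1918 counts, against 44493, 22143 and 59033 for Ogn.

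Decorin differed little between the controls. Dcn, on chromosome 10 from 97479609 to 97518143, had CPM of 203 (201 to 206) on TCP, 197 (194 to 200) on GelMA and 259.6 (257 to 262) on GelMA-PSS. Its GelMA-PSS level lay 0.39 above GelMA and 0.35 above TCP on the log2 scale, and 21.3% and 25.01% of genes lay higher. After the correction these values were -0.01 and 0.03. On TPM they were -0.07 and -0.06, but 0.29 and 0.25 relative to the medians of all genes on that scale. Those medians were -0.36 and -0.31. The size and the sign of the Dcn difference on GelMA-PSS thus depend on the scaling and the correction.

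Lumican is the neighbour of Dcn on chromosome 10, from 97565128 to 97572703, with 47.0 kb between the genes. Lum had 175 counts on TCP, 174 on GelMA and 281 on GelMA-PSS, or CPM of 1.44 (1.24 to 1.67), 1.91 (1.65 to 2.22) and 1.55 (1.38 to 1.74). The intervals of TCP and GelMA-PSS overlap, and the ratio of these libraries was 1.08 (0.891 to 1.31), which is not a detectable difference at this depth. Per base of transcript, Dcn was 197 times as abundant as Lum on TCP (170 to 230), 143 times on GelMA (124 to 167) and 233 times on GelMA-PSS (207 to 263). Beyond Lum on the same chromosome, the cornea gene Kera had 0, 2 and 0 counts and Epyc, of growth plate cartilage, had 3, 0 and 3.

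Fibromodulin, on chromosome 1 from 134037254 to 134048277, was barely detected. Its CPM was 0.197 (0.132 to 0.293) on TCP, 0.187 (0.117 to 0.2996) on GelMA and 0.0276 (0.0118 to 0.0646) on GelMA-PSS. The interval on GelMA-PSS lies under those of both controls, and the ratio against GelMA was 0.148 (0.0426 to 0.417). These values rest on 5 counts on GelMA-PSS.

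The composition of the proteoglycans followed from these values. Per base of transcript, Bgn made up 58.4% of the summed TPM of the 5 genes on TCP, 63.4% on GelMA and 47.3% on GelMA-PSS, while Dcn made up 18.6%, 19.8% and 28.3% and Ogn 22.9%, 16.7% and 24.3%. The ratio of Bgn to Dcn was 3.15 (3.10 to 3.19) on TCP, 3.21 (3.15 to 3.26) on GelMA and 1.67 (1.65 to 1.69) on GelMA-PSS. These shares compare genes within a library, and because Dcn has the shorter transcript they also hold the dependence on length. The summed CPM of the 5 genes was 1450.3, 1313 and 1184, and their summed TPM was 1248, 1179.8 and 784.

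**Figure D4:**
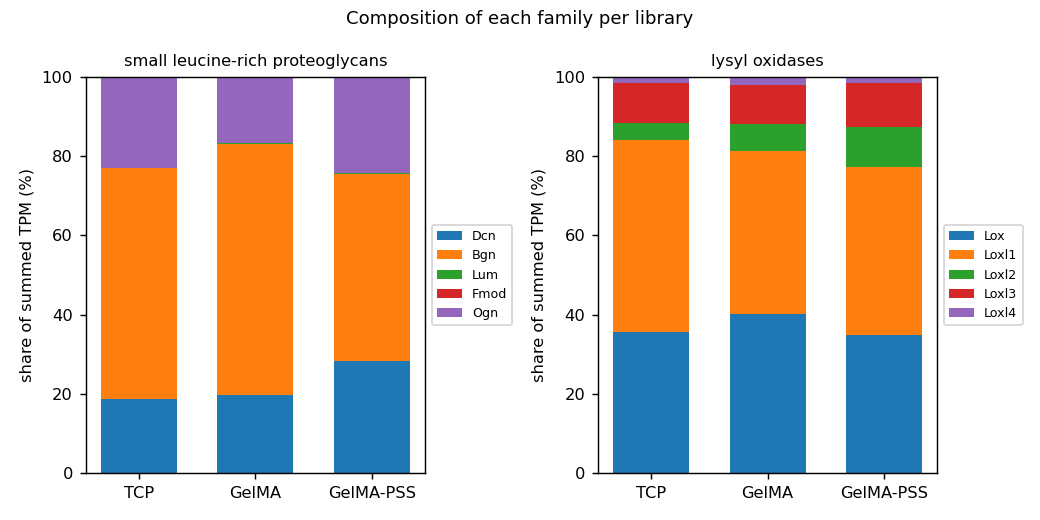
Share of each member in the summed TPM (level per base of transcript, %) of its family in the 3 libraries. Among the proteoglycans the share of Bgn is 63.4% on GelMA and 47.3% on GelMA-PSS, and among the lysyl oxidases the share of Loxl2 is 4.07% on TCP, 6.85% on GelMA and 9.97% on GelMA-PSS. Lum and Fmod are too low to be seen.

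Loxl2 was the member that differed most between the substrates. This lysyl oxidase cross-links type IV collagen of basement membranes and is also known inside the cell as a partner of transcriptional regulators. Loxl2 lies on chromosome 14 from 69609068 to 69695834, with a transcript of 14 exons. It had 3263 counts on TCP, 4982 on GelMA and 14438 on GelMA-PSS, or CPM of 26.8 (25.9 to 27.7), 54.8 (53.3 to 56.4) and 79.7 (78.4 to 81.0). GelMA was 2.05 times TCP (1.96 to 2.14), GelMA-PSS was 2.97 times TCP (2.86 to 3.09), and GelMA-PSS was 1.45 times GelMA (1.41 to 1.502).

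In log2 terms these differences of Loxl2 were 1.01, 1.54 and 0.53. Of all tested genes, 0.691% lay higher in GelMA against TCP, 0.683% in GelMA-PSS against TCP and 13.4% in GelMA-PSS against GelMA. After the correction the ratios were 0.94, 1.78 and 0.86, with 0.835%, 0.337% and 1.17% of genes higher. The call in GelMA against TCP sits on the 2-fold line and is lost with the correction and with median-of-ratios size factors, whereas the order TCP, GelMA, GelMA-PSS was kept on each scale. On TPM the hydrogels nearly coincided, with a log2 ratio of 0.07 while the median of all genes was -0.36. An antisense gene, Gm27177, covers 74219 bases of the Loxl2 locus and was not analysed here, so that its reads cannot be told apart from those of Loxl2 if strand was not used.

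By the Euclidean distance between log2 levels centred over the 3 libraries, the genes nearest to Loxl2 among 13160 compared were A230070E04Rik (0.05), Ndrg2 (0.06) and Hpse (0.06), the last of which encodes heparanase, the enzyme that cuts heparan sulfate chains. Ndrg2 had CPM of 25.5, 50.4 and 77.8 on TCP, GelMA and GelMA-PSS, and Hpse had 2.21, 5.19 and 8.52. Within a distance of 0.1 there were 4 genes. With 3 libraries this likeness is a description only.

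Lox, which encodes the founding enzyme of the family, was highest on GelMA. Lox lies on chromosome 18 from 52516067 to 52529867, and its transcript has 4741 bases. Its CPM was 209.6 (207 to 212) on TCP, 286 (283 to 290) on GelMA and 248 (246 to 250) on GelMA-PSS. The log2 ratio of GelMA against TCP was 0.45, with 6.68% of genes higher, and GelMA-PSS lay at -0.21 against GelMA and 0.24 against TCP. Corrected, these were 0.43, -0.07 and 0.34. On TPM the order of GelMA-PSS and TCP was reversed, at -0.17. The median of all genes on that scale was -0.31, and Lox lay at 0.14 relative to it. An antisense gene, AC161119.1, overlaps 1207 bases of the Lox locus and was not analysed here.

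Loxl1, the member required for elastic fiber assembly, had the smallest span of log2(CPM + 1) levels among the tested members. On chromosome 9 from 58287738 to 58313186, it had CPM of 198 (196 to 201), 204 (201 to 207) and 211 (209 to 213) on TCP, GelMA and GelMA-PSS. Its 3 log2 ratios as measured lay between 0.04 and 0.09. Corrected, GelMA-PSS lay 0.20 above GelMA and 0.23 above TCP, but with library totals Loxl1 lay at -0.10 and -0.02. On TPM it lay at -0.42 and -0.32, or -0.06 and -0.01 relative to the medians of all genes. Per base of transcript Loxl1 was the leading lysyl oxidase in each library, and Lox reached 0.736 of it on TCP (0.723 to 0.749), 0.975 on GelMA (0.957 to 0.994) and 0.818 on GelMA-PSS (0.807 to 0.829).

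Loxl3, which is needed for normal palate and spine development, showed by CPM the same order as Loxl2 with smaller steps. On chromosome 6 from 83034173 to 83052562, Loxl3 had CPM of 51.9 (50.6 to 53.1), 61.9 (60.3 to 63.5) and 69.7 (68.5 to 70.9) on TCP, GelMA and GelMA-PSS. GelMA-PSS lay 0.17 above GelMA and 0.42 above TCP in log2, or 0.35 and 0.56 corrected. On TPM GelMA-PSS lay at -0.29 against GelMA and 0.01 against TCP, or 0.07 and 0.32 relative to the medians of all genes. Against GelMA the sign for Loxl3 was thus reversed on TPM, unless taken relative to the median of all genes. Against TCP these settings differed in size only. Its last 1297 bases overlap Htra2 on the opposite strand, which had CPM of 73.6, 63.5 and 80.7, so that reads there are uncertain without strand. Per base of transcript, Loxl2 was 0.398 of Loxl3 on TCP (0.382 to 0.416), 0.683 on GelMA (0.657 to 0.710) and 0.882 on GelMA-PSS (0.861 to 0.903).

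Loxl4, on chromosome 19 from 42593982 to 42612813, was highest on GelMA, as Lox was. It had 587, 681 and 975 counts on TCP, GelMA and GelMA-PSS, or CPM of 4.82 (4.45 to 5.23), 7.49 (6.95 to 8.08) and 5.38 (5.05 to 5.73). Its log2 ratios were 0.55 in GelMA against TCP, -0.41 in GelMA-PSS against GelMA and 0.13 in GelMA-PSS against TCP. The correction moved them to 0.56, -0.40 and 0.15, whereas on TPM GelMA-PSS lay at -0.77 against GelMA and turned to -0.20 against TCP. Relative to the medians of all genes on TPM, these were -0.41 and 0.11. The interval on GelMA lies above those of the other libraries, while those of TCP and GelMA-PSS overlap, and the ratio of GelMA-PSS to TCP was 1.12 (1.01 to 1.24).

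Set side by side, all 5 lysyl oxidases had a ratio above 0 in GelMA against TCP, with a median log2 ratio of 0.45, or 0.43 corrected. The median of all genes was -0.01, and Loxl1 lay at 0.04, with 41.1% of genes higher. Of the tested elastic fiber genes 11 lay above 0 and 4 below, with a median of 0.45. For the fibrillar collagens and their partners these were 10 and 5, with a median of 0.34. The 4 tested proteoglycans had a median of -0.03 in the same comparison, with 1 above 0 and 3 below. In GelMA-PSS against GelMA the medians were 0.05 for the lysyl oxidases and 0.10 for the proteoglycans, and 0.03 for all genes. Corrected, they were 0.20 and -0.23, so that the sign for the proteoglycans depends on the correction. The summed CPM of the lysyl oxidases was 491 on TCP, 615 on GelMA and 614 on GelMA-PSS. Their summed TPM was 248, 313 and 226, so that the place of GelMA-PSS depends on the scaling. On TPM the median log2 ratio of all genes was -0.36 in GelMA-PSS against GelMA and -0.31 against TCP.

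Of 13 other small leucine-rich proteoglycan genes, 9 were tested. In GelMA-PSS against both controls, 4 of them were higher and 1 was lower without a threshold, beside 45.3% and 39.3% of all genes, and 0 passed 2-fold. Ecm2, Aspn and Omd lie beside Ogn on chromosome 13, with 15.2 kb between Omd and Ogn and 14.9 kb between Aspn and Omd. Asporin (Aspn) had CPM of 7.40 on TCP, 4.82 on GelMA and 10.4 on GelMA-PSS, and Ecm2 had 6.003, 3.54 and 7.68, so that GelMA was the low library as for Ogn. Omd, osteomodulin, had 6.41, 8.41 and 14.0 and did not share this order. The log2 ratios of GelMA against TCP were -0.53 for Aspn, -0.62 for Ecm2 and 0.34 for Omd, and those of GelMA-PSS against GelMA were 0.97, 0.93 and 0.67, or 0.61, 0.85 and 0.32 corrected. Omd alone of the 9 genes passed 2-fold in GelMA-PSS against TCP, at 1.02, or 0.73 corrected. In that comparison 3.72% of all genes were higher past 2-fold.

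On chromosome 1, Prelp lies 116 kb from Fmod and had 1839 counts on TCP, 727 on GelMA and 2171 on GelMA-PSS, again lowest per library size on GelMA, with a log2 ratio of -0.84 against TCP. Podnl1 was ordered as Loxl2, at 12.8, 17.3 and 23.9. Podocan (Podn) was lower on GelMA-PSS, as Bgn was, at 3.66, 3.55 and 1.84, or -0.68 and -0.71 in log2 relative to GelMA and TCP, and -0.60 and -0.65 corrected. The remaining tested genes, Chad, Chadl and Tsku, had log2 ratios between -0.31 and 0.40 in all 3 comparisons.

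**Figure D5:**
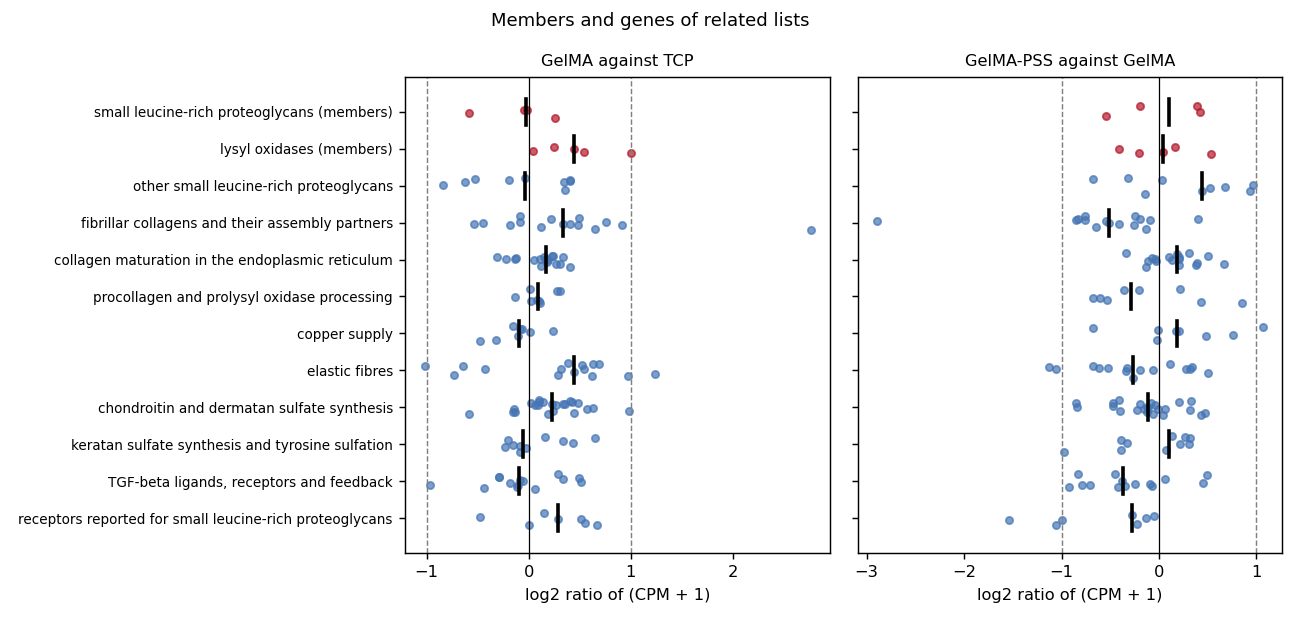
Log2 ratios of (CPM + 1) of the tested members (red) and of genes of related lists (blue) in GelMA against TCP and GelMA-PSS against GelMA. Each point is a gene, spread vertically within its list, black bars are medians and dashed lines mark 2-fold. In GelMA against TCP the lysyl oxidases, elastic fiber genes and fibrillar collagens have medians of 0.45, 0.45 and 0.34.

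The substrates of these enzymes were also examined. Of 16 genes of fibrillar collagens and their partners, 15 were tested. In GelMA against TCP their median log2 ratio was 0.34, with 1 higher past 2-fold, beside 0.706% of all genes. This gene was Col2a1, a cartilage marker that, like Acan and Matn1, was highest on GelMA. In GelMA-PSS against GelMA the median was -0.51, with 14 of 15 below 0, where the median of all genes was 0.03. Corrected, the median of the list was 0.06. Collagen transcripts are long, and that of Col5a1, which lay at -0.65 against GelMA and -0.53 against TCP, has 8406 bases, so that its corrected ratios were 0.12 and 0.03. Col12a1, a collagen bound to the surface of fibrils, had -0.85 and -1.38, or 0.04 and -0.75 corrected. Thrombospondin 1 (Thbs1), a matrix protein that activates TGF-β, had -0.76 and -1.20, or -0.38 and -0.92 corrected.

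Of 17 elastic fiber genes, 15 were tested. Their median in GelMA against TCP was 0.45, with 1 gene higher and 1 lower past 2-fold, beside 0.706% and 0.296% of all genes. In GelMA-PSS against GelMA the median was -0.26, or -0.14 corrected. Fbn1, fibrillin 1 of the microfibrils, had CPM of 307, 475 and 217 on TCP, GelMA and GelMA-PSS, and with a transcript of 11971 bases its log2 ratio against GelMA went from -1.13 to -0.16 when corrected. Ltbp1 and Ltbp3, which tether latent TGF-β to the matrix, lay at -0.61 and -0.68 against GelMA in log2, or -0.14 and -0.22 corrected. Against TCP they lay at -1.04 and -0.39, or -0.70 and -0.02 corrected. In GelMA-PSS against TCP 1 gene of the list was higher past 2-fold and 2 were lower, Ltbp1 among them. The shares of all genes there were 3.72% and 3.13%. The genes past 2-fold in GelMA against TCP were Fbln1, higher at 1.24, and Mfap4, lower at -1.02, which were named after their values were seen.

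Collagen is hydroxylated and folded in the endoplasmic reticulum before it can be cross-linked, and 17 of 18 genes for these steps were tested. GelMA-PSS exceeded both controls for 11 of them and lay under both for 4, beside 45.3% and 39.3% of all genes, and 0 passed 2-fold. The medians were 0.17 in GelMA against TCP, 0.18 in GelMA-PSS against GelMA and 0.33 in GelMA-PSS against TCP, or 0.19, 0.16 and 0.35 corrected. P4ha2, a subunit of prolyl 4-hydroxylase, had CPM of 83.9, 112 and 158 on TCP, GelMA and GelMA-PSS. Serpinh1, the collagen chaperone HSP47, had 592, 642 and 836. Ppib, a prolyl isomerase, lay 0.67 above GelMA and 0.94 above TCP in log2, or 0.12 and 0.47 corrected.

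For procollagen and prolysyl oxidase processing, 8 of 12 genes were tested and 0 passed 2-fold in any comparison. Bmp1, the protease that activates Lox, was named after its values were seen, and had CPM of 222, 238 and 206. Periostin (Postn), which brings Bmp1 to its substrates, had 19.8, 21.5 and 39.6, or log2 ratios to GelMA and TCP of 0.85 and 0.96 as measured and 0.70 and 0.84 when corrected. Adamts14, which trims procollagen, had 195, 177 and 110.1, and Pcsk6, a proprotein convertase, had 2.00, 2.02 and 0.988. Among 9 genes of copper handling, 8 were tested, with 5 higher and 3 lower than both controls on GelMA-PSS, beside 45.3% and 39.3% of all genes. Atp7a, the pump that loads copper onto lysyl oxidases, had 33.7, 40.0 and 24.6, with log2 ratios of -0.68 and -0.44, or -0.52 and -0.32 corrected. Atox1, which hands copper to that pump, had 0.76 and 0.69, or 0.19 and 0.18 corrected. Cox17, which carries copper to the mitochondria, had 1.07 and 0.75, or 1.08 and 0.77 corrected. It alone of the 8 copper genes passed 2-fold, in GelMA-PSS against GelMA, where 1.77% of all genes were called higher.

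The genes that build the sugar chains of the proteoglycans were also examined. Of 26 genes for chondroitin and dermatan sulfate, 23 were tested, with 7 higher and 9 lower than both controls on GelMA-PSS, beside 45.3% and 39.3% of all genes, and 0 past 2-fold in any comparison. At 1.5-fold, 4 were higher and 3 lower in GelMA-PSS against TCP, where 13.2% and 11.5% of all genes were called. Chst12, a chondroitin sulfotransferase, had CPM of 9.37, 12.8 and 18.1. Chst15 lay at -0.47 and -0.61 relative to GelMA and TCP in log2, or -0.17 and -0.39 corrected, and the sulfate transporter gene Slc26a2 had -0.85 and -0.61, or -0.33 and -0.25 corrected. Of 12 genes for keratan sulfate and tyrosine sulfation, 10 were tested. On GelMA-PSS 5 were higher and 4 lower than both controls, beside 45.3% and 39.3% of all genes, and 0 passed 2-fold in any comparison. At 1.5-fold, 2 were higher and 0 lower against TCP, beside 13.2% and 11.5% of all genes. Against GelMA 0 were higher and 1 lower, beside 11.0% and 10.8%. The 3 genes named by size were all lower. Relative to GelMA, B4galt1, Chst2 and Fut8 lay at -0.39, -0.98 and -0.39 in log2, and relative to TCP at -0.41, -0.54 and -0.48. Corrected, the ratios to GelMA were -0.27, -0.45 and -0.48, and those to TCP -0.31, -0.15 and -0.55.

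Of 15 genes of TGF-β signaling, which several proteoglycans bind as ligand, 14 were tested. GelMA-PSS lay under both controls for 11 of them and above both for 2, beside 39.3% and 45.3% of all genes, and 0 passed 2-fold. Their median was -0.36 against GelMA and -0.43 against TCP, or -0.16 and -0.34 corrected. The type I receptor gene Tgfbr1 had CPM of 35.3, 30.9 and 17.4 on TCP, GelMA and GelMA-PSS. Smad7, a feedback inhibitor, had 12.3, 11.4 and 5.98, and Skil, another feedback gene, had 57.1, 72.5 and 37.8. Of 8 genes of receptors reported for these proteoglycans, 7 were tested. GelMA-PSS lay under both controls for 5 of them and above both for 0, beside 39.3% and 45.3% of all genes. Their median was -0.28 against GelMA and -0.33 against TCP, or -0.16 and -0.15 corrected. Lrp1, which takes up many matrix ligands, passed 2-fold against GelMA (-1.54) and TCP (-1.02), as did 1.16% of all genes in the lower direction. Its transcript has 14888 bases, and the corrected ratios were -0.31 and -0.16. Igf1r and Egfr had -1.06 and -0.999 against GelMA, or -0.16 and -0.27 corrected.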

How the data were processed

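Raw counts for each gene symbol, without normalization, were deposited by the authors for 3 libraries, from 101 bp paired-end reads. The methods of the study call these reads strand-specific. The submitters' processing notes name TopHat, edgeR and the builds mm10 and hg19, and versions, counter and annotation are not given in the sources used here. The methods name a TruSeq kit and the labels a SMARTER kit. The study used FPKM, which was not used here.

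Lines sharing a symbol (35 symbols) were summed. CPM used TMM factors of 1.02, 1.04 and 0.943 for TCP, GelMA and GelMA-PSS (edgeR 4.0.16). Genes reaching a CPM of 1 in any library were kept, and 1 was added to each CPM before the log. With 1 library per substrate no test was run and calls rest on 2-fold. Intervals at 95% are Wilson intervals for CPM and exact binomial intervals for ratios (scipy 1.17.1). They cover counting error only, and are too narrow if both mates of a pair were counted. In each library more symbols had 2 counts than 1.

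Lengths, GC content and positions came from GENCODE vM21 (GRCm38, as mm10), with the longest coding transcript per gene and the basic set preferred, for 22866 symbols. Ratios were corrected by loess against log length and then GC content (span 0.3, statsmodels 0.14.6). TPM was computed from these lengths. Promoters came from RefSeq. The procedure was tested on simulated data.

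Members and lists were chosen with earlier results of these data known. Named genes are the members, the tested small leucine-rich proteoglycans, up to 3 genes per list with the largest ratio of GelMA-PSS against the nearer control, and the 3 genes nearest to the member with the widest span. Alternatives covered scaling, pseudocount, filter, threshold, repeated symbols and length.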

Additional observations from a re-analysis of the deposited data

How the results depend on the processing

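No paired analysis was possible because each substrate has 1 library, and for the same reason no library could be left out. In GelMA against TCP, the count of members past 2-fold was 1 (Loxl2), and it was 0 with median-of-ratios size factors and 0 after the length and GC correction. In GelMA-PSS against GelMA it was 0, and it was 1 (Bgn, lower) on TPM without TMM factors, a setting chosen after seeing the data. On that scale the median log2 ratio of all genes was -0.36 against GelMA and -0.31 against TCP. Bgn had -1.01 and -0.97, or -0.65 and -0.66 relative to these medians. The counts in GelMA-PSS against TCP (1) and against both controls (0) were the same under each of the 8 alternatives run.

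Single ratios of members kept their sign in 27 of 27 cases with median-of-ratios factors, with a pseudocount of 0.5 and with the first line of repeated symbols. They kept it in 24 with library totals, in 23 with the correction and in 16 on TPM, there not taken relative to the medians of all genes. The ratios that changed sign with the correction were Dcn and Bgn in GelMA against TCP, Dcn in GelMA-PSS against GelMA, and Lum in GelMA-PSS against TCP. With library totals they were Bgn in GelMA against TCP and Loxl1 in both comparisons of GelMA-PSS. Over all genes, GelMA-PSS against GelMA gave 233 genes higher and 307 lower, 120 and 506 with library totals, 87 and 157 with the correction, and 39 and 1031 on TPM. GelMA-PSS against TCP gave 490 and 412, 338 and 576, 264 and 314, and 143 and 1047 in the same order. Against both controls these were 180 and 153, 97 and 261, 57 and 82, and 30 and 626. At the 1.5-fold threshold the counts of members were those at 2-fold, while the counts over all genes became 461 and 279 in GelMA against TCP, 1448 and 1423, 1738 and 1509, and 1064 and 946. A pseudocount of 0.5 gave 138 genes higher and 63 lower in GelMA against TCP, beside 93 and 39. Depth limits Fmod and Lum, and the difference between cultures of the same substrate, which these libraries do not measure, limits every other value.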
